A study of Mus musculus with 36 samples.

Results

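This account covers the chromatin accessibility around 10 genes of antigen presentation, H2-Aa, H2-Ab1, H2-Eb1, Cd74, Ciita, Tap1, Tap2, Psmb8, Psmb9 and B2m, in mouse hematopoietic stem and progenitor cells. Merging peaks that shared 1 bp or more over the 36 libraries gave 105005 regions, and the 41 regions whose centre lay nearest to a transcription start site (TSS) of one of these genes, among protein-coding TSSs, were chosen by that distance. The genes themselves were proposed with the calls by age in view, and a region downstream of Tap2 was selected for its difference in calls between ages. Calls by age at single regions of these genes are therefore described without a test, and counts of regions past an age test stand beside the share of all regions with nothing read from them. Of the 41 regions, 12 lay at a promoter (from 1000 bp before to 100 bp after a TSS) and 29 elsewhere.

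ATAC-seq, which reads where the Tn5 transposase could cut accessible chromatin, was run on 20000 sorted cells per library from the bone marrow of female C57BL/6 mice that were 10 weeks (young) or 20 months old (aged), with no treatment or engineered allele named in the labels. Hematopoietic stem cells (HSCs) were profiled in 4 libraries per age. Each of the other 7 fractions had 2 libraries per age. These were the multipotent progenitor fractions MPP1 to MPP4, the common lymphoid progenitors (CLPs), the progenitors of megakaryocytes and erythrocytes (MEPs) and those of granulocytes and macrophages (GMPs). By the study's design, marrow of an age was pooled and sorted in replicate, and the study calls the libraries of a group biological replicates. The labels do not say whether they came from separate pools, so p-values measure the spread between these libraries, which may be technical.

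Peptides from proteins made inside the cell are cut by the proteasome, in which Psmb8 and Psmb9 are inducible catalytic subunits, carried into the endoplasmic reticulum by the transporter made of Tap1 and Tap2, and shown at the surface on MHC class I molecules, whose light chain is B2m. Peptides from outside are shown on MHC class II molecules, here I-A, made of the chains encoded by H2-Aa and H2-Ab1, and the beta chain of I-E, encoded by H2-Eb1. C57BL/6 mice lack a functional alpha chain of I-E, so its beta chain does not reach the surface as I-E. Cd74, the invariant chain, guides class II molecules to the compartment where they are loaded, and Ciita is the coactivator on which class II transcription depends. Class II promoters are known for an X box and a Y box, the latter an inverted CCAAT sequence. Class II molecules are best known on dendritic cells, B cells and macrophages, which descend from the fractions studied here.

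A call means that a library had a peak in the region, and the strength is given as fold enrichment, the ratio of reads at the summit to the local background that MACS2 reports, without unit, taking the highest summit in the region. Reads of all libraries had been subsampled to the same number by the authors. Libraries held 9581 to 63288 peaks, with 9581 to 11041 in MEPs and 52576 to 63288 in GMPs. Fold enrichment also differed by fraction over the 5335 regions called in all 36 libraries, with library medians of 7.52 to 7.77 in MEPs, 18.5 to 20.3 in GMPs and 11.6 to 15.5 in the other fractions. Peak number, enrichment and fraction cannot be told apart in the counts of calls for GMPs and MEPs below, other than by the equal peak numbers given there. Fold enrichments of single libraries below are not centred, so GMP and MEP values also carry these differences between library medians. Marker genes of the fractions matched the labels in part, by the region nearest to the TSS of each. The regions of Gata1, Klf1, Epor and Dntt were centred at -3636, +1392, +871 and +1876 bp from it, outside the promoter window. Those of the GMP genes Elane, Mpo and Cebpe were called in 4, 4 and 3 of 4 GMP libraries and in 0, 1 and 0 others. Of the CLP genes, Il7r was called in all CLP, MPP4 and GMP libraries and in none of the rest, but Dntt and Ebf1 in all 8 HSC and 3 of 4 CLP libraries each. Of the MEP genes, Gata1 was called in 1 of 4 MEP and 3 of 4 MPP2 libraries and nowhere else. Klf1 was called in 1 of 4 MEP libraries and in all 32 others. Epor was called in all 4 MEP libraries, but also in 3 of 4 CLP libraries and all libraries of the other fractions. Of the HSC and MPP genes, Hlf and Meis1 were called in all HSC and MPP libraries, but also in all 4 GMP libraries each. In CLPs they were called in 4 and 3 of 4 libraries, and Hlf also in 1 MEP library. Mecom was called in none of the 8 HSC libraries and in 3 of 4 GMP libraries.

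The sequence under the Tap2 distal region is shown because its calls separated the ages, and those upstream of H2-Eb1, H2-Ab1, H2-Aa and B2m because the calls at their promoters are compared below. They are read 5′ to 3′ from GRCm38.p6, the assembly of mm10. The first, chr17:34218717-34218917 on the plus strand, spans 100 bp on each side of the median summit. The others are the 170 bases before the annotated TSS on the strand of the gene, namely chr17:34305697-34305866 (plus), chr17:34263039-34263208 (plus), chr17:34287824-34287993 (minus) and chr2:122147516-122147685 (plus). Capitals mark matches on either strand to the letters GAAANNGAA (ISRE), TTCNNNGAA (GAS), GGAANNGAA (ETS-IRF), GAGGAAGT (PU.1), TGTGGT (RUNX), AGATAA (the motif of the GATA factors), CCAAT or the X box consensus.
Tap2 distal: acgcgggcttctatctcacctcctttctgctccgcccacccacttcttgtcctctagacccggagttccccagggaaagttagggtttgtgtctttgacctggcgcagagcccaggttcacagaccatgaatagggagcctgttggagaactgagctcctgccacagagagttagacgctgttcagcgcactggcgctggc
H2-Eb1 upstream: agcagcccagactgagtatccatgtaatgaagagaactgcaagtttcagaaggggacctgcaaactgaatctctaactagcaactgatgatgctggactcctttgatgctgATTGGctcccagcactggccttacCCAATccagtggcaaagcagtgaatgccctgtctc
H2-Ab1 upstream: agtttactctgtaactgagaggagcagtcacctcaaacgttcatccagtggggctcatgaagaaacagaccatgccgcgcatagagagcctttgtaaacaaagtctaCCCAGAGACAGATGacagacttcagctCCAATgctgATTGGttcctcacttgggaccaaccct
H2-Aa upstream: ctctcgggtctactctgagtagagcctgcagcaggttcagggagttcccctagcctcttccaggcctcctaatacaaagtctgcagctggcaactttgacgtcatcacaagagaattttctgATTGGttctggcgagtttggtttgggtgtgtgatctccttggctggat
B2m upstream: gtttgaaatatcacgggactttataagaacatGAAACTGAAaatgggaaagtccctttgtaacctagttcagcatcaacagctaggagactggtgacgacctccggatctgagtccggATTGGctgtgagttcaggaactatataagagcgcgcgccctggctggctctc

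No capitals stand in the Tap2 distal sequence, so none of the 8 motifs searched was in that window. All 4 promoter sequences held an inverted CCAAT, and those of H2-Eb1 and H2-Ab1 also held one in the forward direction. The X box consensus was matched upstream of H2-Ab1, at chr17:34263146-34263159, and an ISRE upstream of B2m, at chr2:122147548-122147556. The X box was searched as 1 fixed pattern of 14 letters with no mismatch allowed. A promoter without a match may therefore still hold an X box. Over windows of 201 bp around the median summits of 104825 regions, 22.4% held a CCAAT, 8.26% an ISRE, 8.87% an ETS-IRF and 0.175% an X box by these letters. Of the 41 windows of these genes, 15 held a CCAAT, 5 an ISRE and 10 an ETS-IRF. An X box was in 1, at the second H2-Eb1 promoter region 936 bp upstream. A RUNX match was in 25.6% of all windows and in 8 of the 41, and a GATA match in 10.3% and 5. PU.1 was matched in 8.44% and 2, and GAS in 5.68% and 2. GC content of the Tap2 distal window was 57.7% against a median of 49.8%, and 0% of it was repeat-masked against a median of 9.45%. A match is a likeness of letters, and no factor was measured.

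The Tap2 distal region, chr17:34218671-34219098, had a peak in 13 of the 18 aged libraries and in 1 of the 18 young ones. In bulk samples such as these, fewer open cells and less accessibility per cell cannot be told apart. Its centre lay 15357 bp downstream of the Tap2 TSS and past the end of the gene, in sequence that is intergenic among protein-coding genes (with non-coding genes included, the nearest TSS is that of Gm15821), with the TSS of H2-Ob, a class II gene of the peptide loading pathway, 20019 bp away on the other side. In young HSCs only replicate 4 had a peak, with a fold enrichment of 7.49. In aged HSCs all 4 libraries had one, at 6.45, 10.4, 6.95 and 4.69, so the single young value lay within the aged range.

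The calls reached beyond HSCs. Aged MPP1 had fold enrichments of 12.2 and 10.6, aged MPP2 of 11.7 and 9.41, and aged MPP3 of 5.70 and 9.09, whereas none of the 6 young libraries of these fractions had a peak. Aged MPP4 had a peak in replicate 2 alone, at 8.58, and both aged MEP libraries had one, at 5.92 and 7.57. No GMP or CLP library of either age was called. The highest fold enrichments thus lay in aged MPP1 and MPP2 rather than in aged HSCs. The summits of the 14 libraries fell within 196 bp, between 34218749 and 34218945.

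Of all 105005 regions, 0.00571% had at least 12 more aged than young libraries with a call, and 0.0448% had at least 9 more, which among the 41 regions were the Tap2 distal region and the H2-Eb1 promoter. Since the first was picked for this difference and the genes were proposed with these calls in view, their place in that list is no result. Peak names in 9 aged and 2 young libraries carry the tag "new", which no source used here explains. Among libraries without it, 6 of 9 aged and 1 of 16 young ones had the Tap2 distal peak, and among those with it 7 of 9 aged and 0 of 2 young ones. Tag and age overlap in most fractions, and the part of the tag in the difference was not tested beyond these counts.

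Regions nearest to marker genes of other cells that present antigen were counted in the same libraries. Of 19 regions nearest to B cell genes, 1 was called in each HSC library of both ages. It lay at +5894 bp from a Pax5 TSS and was called in 18 young and 17 aged libraries of all fractions, so it does not mark B cells here. Of 44 regions nearest to dendritic cell genes, 9 to 11 were called in young and 7 to 8 in aged HSC libraries, and of 41 nearest to monocyte and macrophage genes 8 to 12 and 6 to 10. In MPP1 to MPP3 the same lists gave 1 to 2 against 1, 10 to 13 against 9 to 12, and 10 to 18 against 9 to 13, so in these fractions no list reached a higher count in the aged libraries. Elsewhere some did. In MPP4 1 B cell region was called in each young and 2 in each aged library, and 13 against 12 to 14 monocyte and macrophage regions. Dendritic cell regions in MPP4 went the other way, at 12 to 14 against 11. So did B cell regions in CLPs, at 5 to 7 against 4 to 6. In CLPs the counts were 12 to 13 against 14 to 17 for dendritic cells and 10 to 13 against 11 to 16 for monocytes and macrophages, and in GMPs 9 to 11 against 9 to 13 for B cells and 27 to 30 against 32 to 34 for monocytes and macrophages. Of the 6 monocyte and macrophage genes, by the region nearest to the TSS of each, Cd68 was called in all HSC and MPP libraries, Csf1r and Ccr2 in none of them, Adgre1 in 2 MPP3 and 4 MPP4 libraries, Ly6c2 in 1 and 2, and Cx3cr1 in 2 MPP2, 3 MPP3 and 4 MPP4 libraries. Of the dendritic cell genes, by the same rule, Clec9a was called in 16 young and 16 aged libraries, in every fraction but MEPs. Zbtb46, Xcr1, Itgax, Siglech and Batf3 were called in no HSC library. The part of such antigen-presenting cells in the difference was not tested.

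The H2-Eb1 promoter, chr17:34305649-34306048, had a peak in 14 of the 18 aged libraries and in 5 of the 18 young ones. In HSCs no young library had a peak, and 3 of 4 aged libraries had one, at 6.87, 7.28 and 6.96. Among the MPPs 3 of 8 young libraries had a peak, at 6.60, 7.47 and 7.96, whereas all 8 aged libraries had one, from 5.17 in MPP3 to 10.4 in MPP1. In GMPs all 4 libraries had strong peaks, with 14.6 and 15.7 in the young and 16.3 and 14.97 in the aged. No MEP library and only 1 aged CLP library was called.

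Among libraries without the tag "new", the H2-Eb1 promoter was called in 8 of 9 aged and 5 of 16 young ones, and among those with it in 6 of 9 aged and 0 of 2 young ones. When peaks had to reach a -log10 q of 10, 6 aged and 3 young libraries kept it, and with at least 50% of the region covered 9 and 4 did. The Tap2 distal region had 8 and 0 calls under the first of these limits and 10 and 1 under the second.

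**Figure D1:**
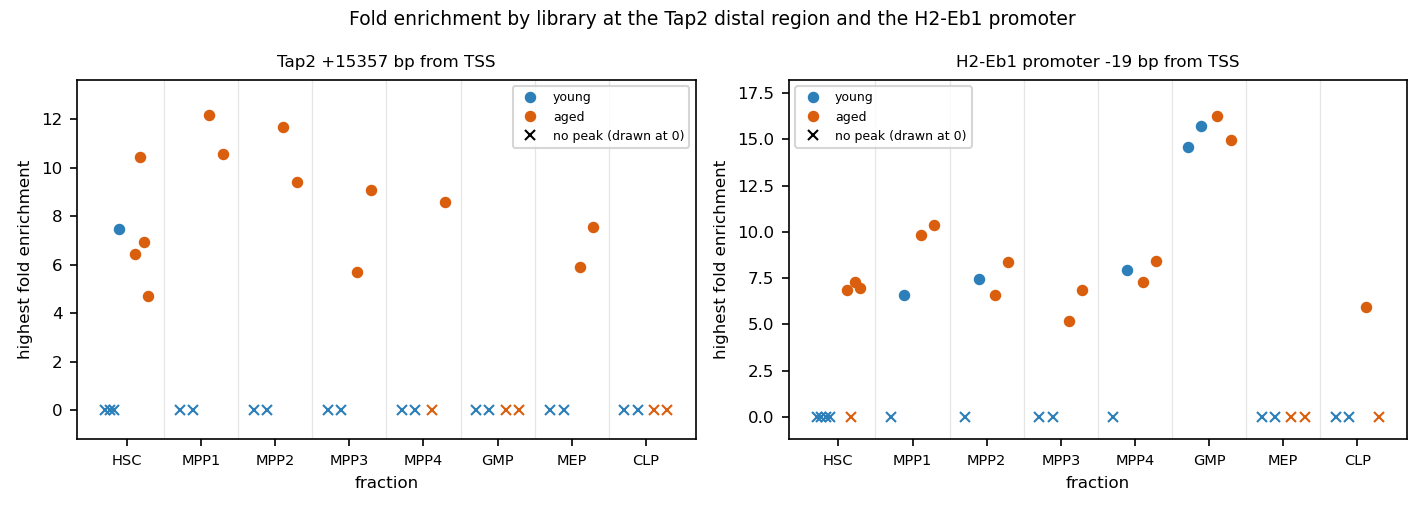
Highest fold enrichment (vertical axis) in each library by fraction (horizontal axis) at the Tap2 distal region (left) and the H2-Eb1 promoter (right), with young libraries in blue, aged in orange, and crosses at 0 for libraries without a peak. At the Tap2 distal region 1 young and 13 aged libraries carry a point, and at the H2-Eb1 promoter GMP libraries of both ages sit highest, between 14.6 and 16.3.

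Regions called in some libraries but not all were compared by age over the whole catalogue, with an exact conditional test that kept the fraction as stratum. The Tap2 distal region was left out of the counts for these genes. Over all fractions, 0 of 37 tested regions of these genes passed an adjusted p of 0.05 in either direction, and neither did any of the 99670 regions (0% higher and 0% lower, smallest adjusted p = 0.275). At an unadjusted p under 0.05, 0.613% of all regions had more and 0.56% fewer aged calls, and of the 37 regions 1 did in each direction. In HSCs alone, 4 against 4 libraries can reach no p below 0.0286 by Fisher's exact test. Of these genes 0 of 12 tested regions reached it, against 0.648% of 34285 regions with more and 0.417% with fewer aged calls. After adjustment 0% passed in each direction, which this test could hardly avoid. Passing would have required most of the 34285 regions to separate the ages completely, so nothing is concluded from the adjusted count. From read counts, the study did report differentially accessible regions in aged HSCs.

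The Cd74 region 1987 bp downstream of its TSS, in an intron, had calls in 16 young and 11 aged libraries. Among libraries without the tag "new" 15 of 16 young and 7 of 9 aged ones were called, and among those with it 1 of 2 and 4 of 9. All 8 young MPP libraries had a peak, at 3.66 to 6.85, against 3 of 8 aged ones, at 7.23 in MPP1, 4.91 in MPP3 and 4.02 in MPP4. In HSCs all 8 libraries had one, from 3.80 to 5.93 in the young and from 4.45 to 6.55 in the aged, and the ranges overlapped. GMP values, without centring, were higher, at 12.2 and 12.6 in the young and 14.3 and 10.3 in the aged.

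A second intronic Cd74 region, 3574 bp downstream of its TSS, was called in 4 of 4 young HSC libraries, at 6.72, 4.95, 5.25 and 4.19, and in 1 of 4 aged ones, at 5.34. Outside HSCs it was called in 11 of 14 libraries of each age. Its GMP values lay between 13.1 and 14.3 in all 4 libraries. The promoter of Cd74 was called in 16 young and 15 aged libraries, with fold enrichments of 4.41 to 10.9.

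The region 8432 bp upstream of H2-Aa had a peak in 12 aged and 7 young libraries, and the region 16318 bp upstream of Tap1 in 1 young and 6 aged libraries. In HSCs the first was called in replicate 2 of the young, at 4.86, and in replicates 3 and 4 of the aged, at 7.43 and 6.11. The second had no call in HSCs, and its aged calls were single libraries of MPP1, MPP2, MPP3 and CLP and both GMP libraries, at 4.76 to 8.08.

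**Figure D2:**
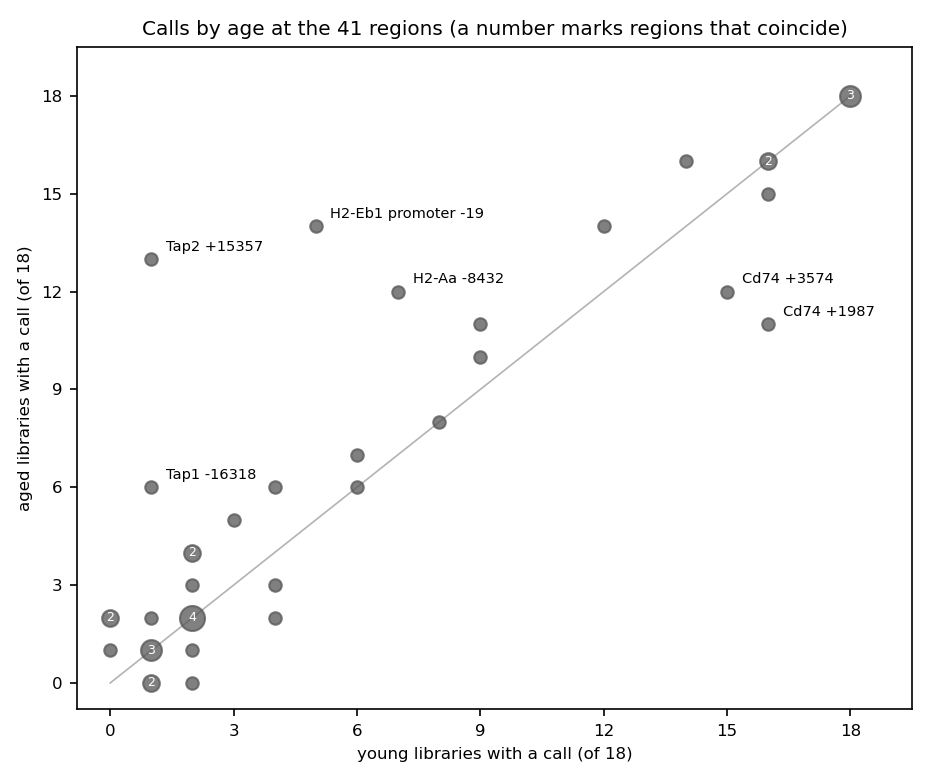
Number of the 18 young (horizontal axis) and 18 aged (vertical axis) libraries with a call at each of the 41 regions, where a number in a point gives how many regions coincide and the line marks equal counts. The Tap2 distal region (1 and 13) and the H2-Eb1 promoter (5 and 14) lie farthest above the line, and the Cd74 region 1987 bp downstream (16 and 11) farthest below it.

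Of the class I genes, 3 regions were called in every library. The region over the Tap1 TSS, chr17:34187158-34187899, a region within Tap2, chr17:34210447-34211038, 7215 bp downstream of its TSS, and the B2m promoter, chr2:122147291-122147911, made up the 3 of 41, against 5.08% of all regions. Psmb9 had no region of its own. Its TSS, on the opposite strand to Tap1, lay 236 bp from the centre of the Tap1 region and inside it. The merged region thus held the starts of both genes and was counted for Tap1, 25 bp from its centre. Whether a single peak of a library covered both starts was not examined.

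At the Tap1 and Psmb9 region young HSC libraries had fold enrichments of 11.2, 12.5, 8.39 and 11.7, and aged ones 10.7, 7.52, 9.81 and 14.4. The other fractions ranged from 5.50 in a young MEP library to 18.8 in an aged GMP library. The aged range of HSCs contained the young one, and over all fractions the difference was 0.03 ± 0.07 (SE) on the log2 scale, with each library centred on its median (limma, adjusted p = 0.973).

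At the region within Tap2 young HSC libraries had 10.5, 10.2, 9.80 and 12.3, and aged ones 14.8, 11.8, 6.95 and 7.09. The difference by age over all fractions was -0.06 ± 0.09 (SE, adjusted p = 0.948). This region stood lower in HSCs than in the mean of the other 7 fractions, by a log2 difference of -0.44 ± 0.10 (SE, limma, adjusted p = 0.00204), with fold enrichments of 6.95 to 14.8 in HSCs, 4.81 to 8.16 in MEPs and 12.1 to 21.4 in the other fractions. Of all 5335 regions called in every library, 10.7% were lower in HSCs in this test. Its window of 201 bp, chr17:34210678-34210878 on the plus strand, is shown because it held 3 RUNX matches and 2 GATA matches, in capitals, of which the first RUNX and first GATA share 1 base.
Tap2 intronic: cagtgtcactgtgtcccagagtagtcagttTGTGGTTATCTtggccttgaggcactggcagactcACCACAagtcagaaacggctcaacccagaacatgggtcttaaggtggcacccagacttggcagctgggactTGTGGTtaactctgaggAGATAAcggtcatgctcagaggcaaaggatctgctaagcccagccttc
Of all windows, 25.6% held a RUNX and 10.3% a GATA match.

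The B2m promoter was the strongest region of these genes in GMPs. Young GMP libraries had 28.02 and 30.3 and aged ones 31.6 and 29.1, against 11.6 to 12.8 in young and 12.3 to 14.4 in aged HSCs and 6.23 to 8.67 in MEPs. After centring, GMPs were higher than the mean of the other fractions by 0.53 ± 0.10 (SE, log2, limma, adjusted p = 0.000101) and MEPs lower, with a difference of -0.32 ± 0.10 (adjusted p = 0.0173), where 17.6% of all regions were higher in GMPs and 14% lower in MEPs. Without centring the differences were 1.19 and -1.19, since enrichment differed between these fractions at most regions. With age the B2m promoter differed by 0.12 ± 0.06 (SE, adjusted p = 0.710).

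Of the 3 regions, 0 passed the adjusted threshold for age over the 36 libraries, as did 0% of all regions in each direction, and 0 passed unadjusted, against 3.47% higher and 3.58% lower. Whether the change with age differed by fraction was tested as an interaction, and adjusted p-values were 0.958 for the B2m promoter and 1.00 for the other two. Over the 17340 regions called in all 8 HSC libraries, 0 of 8 regions of these genes passed in HSCs, adjusted (0% of all regions in each direction) or unadjusted (4.59% higher and 4.47% lower).

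**Figure D3:**
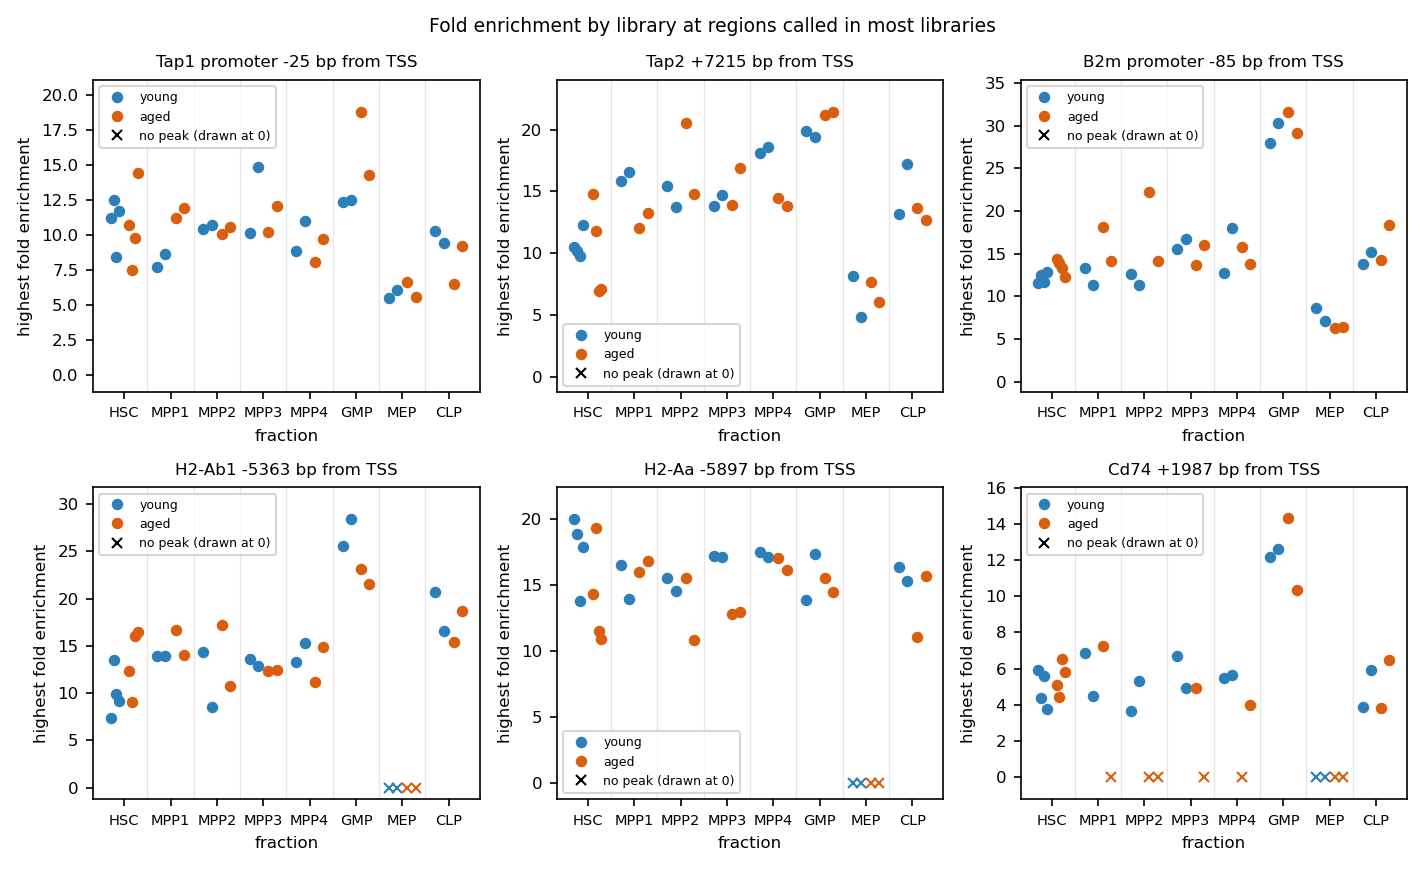
Highest fold enrichment (vertical axes) by fraction (horizontal axes) in young (blue) and aged (orange) libraries at 6 regions called in most libraries, with crosses at 0 for no peak. The B2m promoter and the region upstream of H2-Ab1 are highest in GMPs, MEP libraries lie in the lower range where they have a peak, and the region 5897 bp upstream of H2-Aa differs little between the fractions that have it.

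The other class I regions varied by fraction. The Psmb8 promoter, chr17:34197421-34197898, was called in 7 of 8 HSC libraries, at 5.02 to 8.46, in all 4 MPP1 and all 4 GMP libraries, and in no MPP4, MEP or CLP library. GMP values were 14.9 and 23.1 in the young and 18.9 and 16.95 in the aged. In MPP2 it was called in both aged libraries, at 5.25 and 5.95, and in neither young one.

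The Tap2 promoter was called in a single library, young MPP4 replicate 1, at 6.83, although the region within the gene was called throughout. A region 13229 bp upstream of Tap1 was called in all 4 GMP libraries, at 15.8 to 18.3, all 4 CLP libraries, at 6.47 to 8.64, 3 of 4 MPP4 libraries and 1 aged MPP3 library. A region 9507 bp upstream of B2m, in an intron of its neighbour Patl2, had the opposite distribution, with calls in all 4 MEP libraries, at 6.31 to 8.57, all 4 MPP2 and 3 of 4 MPP1 and MPP3 libraries each, 1 MPP4 and 1 HSC library, and none in GMPs or CLPs. Its calls fell equally, 8 and 8, on the young and the aged.

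H2-Ab1 and H2-Aa had their strongest regions away from their promoters, whereas H2-Eb1 and Ciita had theirs at a promoter. The region 5363 bp upstream of H2-Ab1, chr17:34257608-34258084, and the region 5897 bp upstream of H2-Aa, chr17:34293449-34293991, were called in all 32 libraries outside MEPs and in no MEP library, as were 3.02% of all regions. Of the 41 regions 7 were called in a MEP library at all, against 13.3% of the catalogue.

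At the H2-Ab1 upstream region young HSC libraries had fold enrichments of 7.33, 13.5, 9.93 and 9.19, and aged ones 12.3, 9.01, 16.1 and 16.5. The mean was 9.99 ± 2.59 (SD, n = 4) in young and 13.5 ± 3.51 (SD, n = 4) in aged HSCs, and the ranges overlapped (log2 difference 0.44 ± 0.21 SE, limma adjusted p = 0.553). GMPs went the other way, with 25.6 and 28.4 in the young and 23.1 and 21.6 in the aged, although this pair of differences was not tested against each other.

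At the H2-Aa upstream region young HSC libraries had 20.0, 18.9, 13.8 and 17.9, and aged ones 14.3, 19.3, 11.6 and 10.9. The mean was 17.7 ± 2.72 (SD, n = 4) against 14.03 ± 3.82 (SD, n = 4), with overlapping ranges (log2 difference -0.34 ± 0.19 SE, limma adjusted p = 0.626). In MPP3 both young libraries, at 17.2, lay above both aged ones, at 12.8 and 12.9, which carry the tag "new", whereas in MPP1 the mean was 15.3 ± 1.78 (SD, n = 2) in the young and 16.4 ± 0.62 (SD, n = 2) in the aged.

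Over the 32 libraries outside MEPs, a set added after the calls were seen, 11159 regions could be tested for age. The H2-Aa upstream region differed by -0.18 ± 0.07, lower in the aged (SE, log2, limma adjusted p = 0.519), the B2m promoter higher by 0.18 ± 0.06 (adjusted p = 0.410), and the H2-Ab1 upstream region differed by 0.10 ± 0.09 (adjusted p = 0.824). Unadjusted, these were 1 of 5 regions in each direction, against 4.01% of all regions higher and 4.15% lower. After adjustment 0 of 5 passed, against 0.0179% higher and 0% lower.

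The class II promoters differed in how widely they were called. That of H2-Aa was called in 30 of 36 libraries and in no MEP library, at 6.01 to 13.3, and that of H2-Ab1 in 26, at 5.99 to 11.6, including 1 of 4 MEP and 1 of 4 CLP libraries, both aged. In HSCs the H2-Aa promoter had 6.81, 7.83 and 6.01 in 3 young libraries and no peak in replicate 3, and 11.1, 6.28, 8.94 and 8.86 in the aged. The H2-Ab1 promoter had 5.99, 6.74, 10.8 and 6.89 in the young and 6.08, 10.3 and 11.6 in 3 aged libraries. The second region at H2-Eb1, 936 bp upstream of its TSS, was called in all 4 GMP libraries, at 6.85 and 6.91 in the young and 11.3 and 9.83 in the aged, and in 4 of the other 32 libraries.

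Ciita, which has 5 annotated TSSs, had 3 regions that were each called in all libraries of at least 1 fraction. The region at chr16:10489474-10490129, centred 18 bp downstream of the TSS at 10489783, was called in all 8 HSC libraries, at 6.56, 6.81, 6.66 and 4.39 in the young and 6.93, 4.66, 7.15 and 4.08 in the aged, in 3 of 4 MPP1 and 2 of 4 MPP2 libraries, and nowhere else. Its summits in these 13 libraries spread over 475 bp, between 10489560 and 10490035, so the calls need not share 1 position. The region at chr16:10487798-10488231, centred 265 bp upstream of the TSS at 10488279, was called in all 4 GMP libraries, at 12.3 to 15.7, all 4 CLP libraries, at 9.81 to 11.1, and both aged MPP4 libraries, at 4.83 and 4.13. No HSC, MPP1, MPP2, MPP3 or MEP library had it. The third, 3989 bp upstream of the TSS at 10480059, was called in all 4 CLP libraries, at 5.40 to 8.08, and 1 aged MPP3 library.

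**Figure D4:**
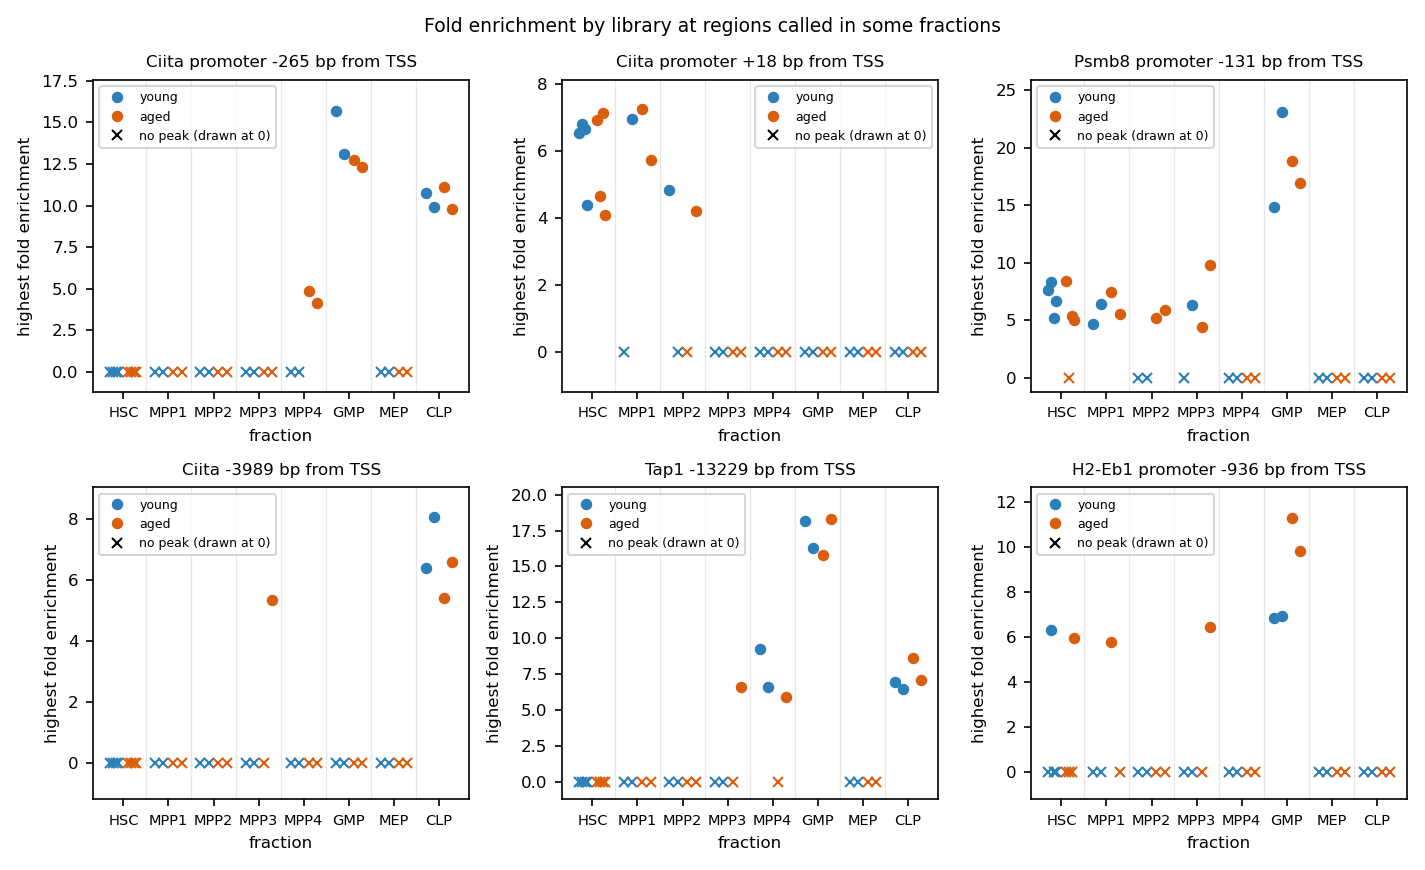
Highest fold enrichment (vertical axes) by fraction (horizontal axes) in young (blue) and aged (orange) libraries at 6 regions called in some fractions, with crosses at 0 for no peak. The Ciita region at +18 bp has points in HSCs, MPP1 and MPP2 alone, that at -265 bp in MPP4, GMPs and CLPs alone, and the Psmb8 promoter and the Tap1 region at -13229 bp are highest in GMPs.

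By Fisher's exact test of each fraction against the other 7, adjusted over all regions and fractions, 14 of 38 tested regions of these genes differed in at least 1 fraction, as did 36% of all regions, a share near that background. The Ciita region at +18 bp was more often called in HSCs (8 of 8 against 5 of 28 libraries, adjusted p = 0.00249), as were 1.7% of all regions, and the Ciita region at -3989 bp in CLPs (4 of 4 libraries against 1 of 32, adjusted p = 0.00389), as were 2.56%. In GMPs 7 of 38 regions were more often called, against 21% of all regions, a share near that background. They were the regions 5386 and 6442 bp downstream of the B2m TSS and 8548 bp upstream of Cd74, each called in 4 GMP libraries and no other, those at Tap1 -6850 and H2-Aa -3955, each called in 3 GMP libraries and no other, and those at Cd74 +1227 (adjusted p = 0.0098) and H2-Eb1 -936 (adjusted p = 0.0286). The first 5 are in the catalogue through GMP peaks alone, so their calls restate how they entered it and are a description. In MEPs 5 were less often called, against 9.23% of all regions. They included the 2 upstream regions of H2-Ab1 and H2-Aa (adjusted p = 0.001) and the H2-Aa promoter (adjusted p = 0.0098). The Cd74 regions at +1987 and +3574 were the others (adjusted p = 0.0469).

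Most of these calls depended on the setting. With peaks of -log10 q of at least 10 the calls at Ciita +18 and -3989, Tap1 -6850 and H2-Eb1 -936 were lost. So were those at H2-Aa -3955, the H2-Aa promoter and Cd74 +1987 and +3574. With 50% coverage the calls at Ciita +18, the H2-Ab1 upstream region, the H2-Aa promoter and Cd74 +1987 and +3574 were lost. When every library, of whatever fraction, was cut to its 9581 strongest peaks, 4 to 6 of the 41 regions were called in GMP and in MEP libraries alike, and 0 of the 14 regions passed in the same fraction. The H2-Ab1 and H2-Aa upstream regions were then still absent from all 4 MEP libraries and called in 26 and 27 of the other 32, but the H2-Aa region was then also absent from all 4 GMP libraries. The 3 regions that passed instead were the one within Tap2, less often called in HSCs, that at Cd74 +3574 in GMPs, and that at B2m -9507 in MEPs. The Ciita regions at +18 and -3989 bp had no call in any library under that limit, and the Tap2 distal region had 2, both in MEPs.

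Per library, HSCs had 14 ± 2.71 (SD, n = 4) of the 41 regions called in the young and 14 ± 1.83 (SD, n = 4) in the aged. In MPP1 the counts were 7 and 15 in the young and 18 and 15 in the aged, in MPP2 14 and 13 against 17 and 17, and in MPP3 10 and 14 against 16 and 19. MPP4 had 16 and 14 against 14 and 16. These counts include the Tap2 distal region, chosen for its calls by age, and nothing is read from them about age. GMPs had 26 to 30 and MEPs 4 to 6, and CLPs 13 and 15 against 12 and 18. Of the 41 regions 10 were called in GMP libraries alone, as were 24.1% of all regions, and 3 in a single library, against 18.4%.

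**Figure D5:**
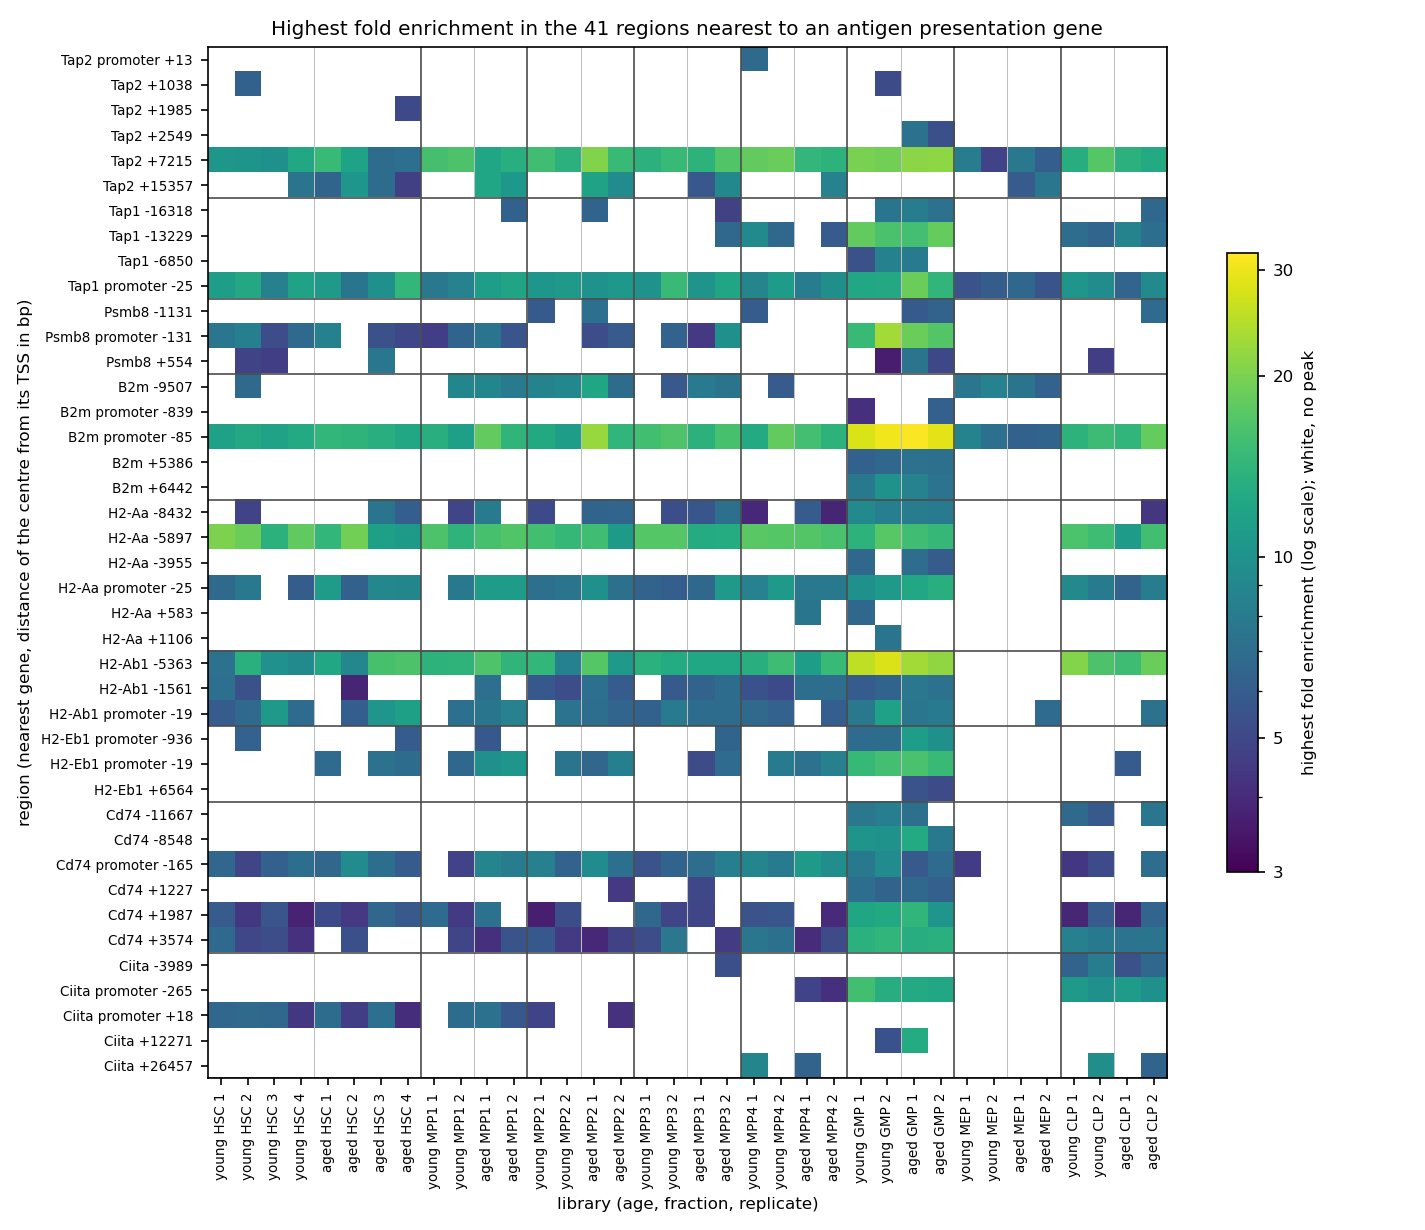
Highest fold enrichment (colour, log scale, white for no peak) of each of the 41 regions (rows, by nearest gene and distance from its TSS) in each of the 36 libraries (columns, by fraction, age and replicate). Rows filled across all columns are the Tap1 promoter, the region within Tap2 and the B2m promoter, MEP columns are nearly empty at the class II genes, and the row of Tap2 at +15357 bp is filled in aged columns from HSC to MPP3.

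Genes that work beside these were followed by the same test over all fractions. Of 12 further class II genes, among them the peptide exchange factors H2-DMa and H2-DMb1 and the promoter-binding factor Rfx5, 10 had a region nearest to them, and of their 57 tested regions 0 passed in either direction, adjusted or unadjusted. Of 12 further class I genes, among them the heavy chains H2-K1 and H2-D1, the transactivator Nlrc5 and the immunoproteasome subunit Psmb10, 0 of 37 tested regions passed, adjusted or unadjusted. Of 11 genes of interferon signalling, which induces antigen presentation, 0 of 158 tested regions passed after adjustment, and 3 had more aged calls unadjusted, where 0.613% of all regions did. Among them was a region 15219 bp upstream of Irf2 (8 young and 16 aged libraries, exact p = 0.00298), with adjusted p = 1. The median difference in libraries called was 0 in all 3 lists and 0 over all regions.

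The regions whose fold enrichment over the 36 libraries was most like that of the Tap2 distal region were looked for among regions nearest to none of the 10 genes. Likeness was measured as Pearson's r of log2(fold enrichment + 1), with 0 where a library had no peak. The 5 highest lay nearest to Svil (r = 0.824), Map1b (r = 0.792), Pigk (r = 0.751), Snx19 (r = 0.749) and Arhgap26 (r = 0.728). They were called in 0 or 1 young libraries and in 9 to 11 aged ones, and had the same call as the Tap2 distal region in 31 or 32 of 36 libraries. They were picked as the most alike of 105005, so the values describe these regions and nothing was tested.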

How the data were processed

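Per the study's methods, single reads of 60 bp from fragments of 240 to 360 bp were aligned by the authors with Bowtie2 to mm10, mapped reads were subsampled to equal numbers, and peaks were called in each library with MACS2 2.2.6 at q = 0.001. In the deposited peak lists each summit has its fold enrichment, which is a ratio to local background, and its -log10 q-value, but no read counts are held, so the study's count model could not be run. Regions were annotated with GENCODE release 21 (mouse, basic set, protein-coding transcripts). Calls were compared with an exact conditional test stratified by fraction and with Fisher's exact test, and log2 fold enrichment (pseudocount 0, each library centred on its median) with limma 3.58.1 (R 4.3.3), two-sided, with p-values adjusted after Benjamini and Hochberg over all regions and a threshold of 0.05. Scripts (Python 3.11.15) were tested on simulated data. The genes named are the 10 members, the genes of lists of class I, class II, interferon and marker genes, and the 5 regions most like the Tap2 distal region. The members, lists and regions were chosen with earlier results of these data known. Alternatives were stricter peaks (-log10 q of at least 10), 50% coverage of a region, equal peak numbers (within each fraction for age, over all libraries between fractions), no centring, a pseudocount of 1, the mean over summits, all genes of the annotation, the replicate number as a block, and leaving out each library. Intervals of counting error were not computed, since the depth of reads is unknown. Some single regions of the lists are not reported here.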

Additional observations from a re-analysis of the deposited data

Results flagged for a closer look

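In 2 of 22 groups of 4 HSC libraries examined, 1 library stood apart by Dixon's criterion, which chance meets in about 1 in 20 groups. In young HSCs the fold enrichment at the Ciita region 18 bp downstream of a TSS was 4.39 in replicate 4 against 6.56 to 6.81 in the other three. In young HSCs replicate 2 had 18 of the 41 regions called against 12 to 13 in the others, and it also had the most peaks of the 4. No region was called in all aged and no young libraries of one fraction and the reverse in another, and no interaction of age with fraction passed.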

How the results depend on the processing

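For single regions of these genes, no age test became significant after adjustment under any alternative tried. The difference of 12 libraries (aged minus young) at the Tap2 distal region was 8 to 11 with stricter peaks, 50% coverage, equal peak numbers within each fraction or HSC replicates 1 and 2 alone, and 5 among libraries without the tag "new", where fewer libraries were compared. By HSC replicate pairs, 1 of 20 regions separated the ages in replicates 1 and 2, where 7.37% of all regions did. That 1 was the Tap2 distal region, which was chosen for its calls by age, so nothing is read from this count. In replicates 3 and 4, 3 of 18 did (H2-Aa -8432, the H2-Eb1 promoter and Cd74 +3574), where 10.1% of all regions did. Over all 8 libraries 0 did, and 0 to 2 leaving out 1 library. These were 1 without young replicate 4, again the Tap2 distal region, and 2 without aged replicate 2. Regions that differed by fraction numbered 14, and 3 with equal peak numbers over all libraries, and 9 to 13 leaving out 1 library, the lowest without young or aged GMP replicate 1. With stricter peaks 13 passed, 6 of them among the 14, and with 50% coverage 11, 9 of them among the 14. The calls at Ciita +18 in HSCs and at the H2-Aa promoter and Cd74 +1987 and +3574 in MEPs were lost under both. Fraction differences in fold enrichment at the 3 shared regions numbered 3 centred and 7 uncentred. Age differences near 0 changed sign when 1 library was left out: the Tap1 promoter (log2) from -0.0018 to 0.0561 over 36 libraries and from -0.0028 to 0.0660 outside MEPs, and in HSCs the Tap1 promoter from -0.22 to 0.0953, Tap2 +7215 from -0.34 to 0.0426 and Ciita +18 from -0.21 to 0.0422. With all annotated genes 34 of the 41 regions kept their gene. The Tap2 distal region and Tap2 +7215 went to Gm15821, and Tap2 +1038, +1985 and +2549 to Gm20496. The H2-Eb1 regions at -936 and +6564 went to Gm20513. With a replicate block, 0 regions passed for age. Same-numbered young and aged libraries correlated by -0.10 to 0.13 in HSCs and by 0.01 to 0.24 in the other 7 fractions, where both pairs of a fraction share 1 value by construction. Not every pair was over 0.1, and 4 of 8 HSC libraries correlated best with their own number, so the numbers were not taken as pairs. Calls at the H2-Eb1 promoter, 14 aged and 5 young, were 6 and 3 with stricter peaks and 9 and 4 with 50% coverage. The alternatives without "new", outside MEPs and for fraction enrichment were chosen after seeing the data. Peak lists without reads leave differences below the calling limit undetectable.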
